A study of Mus musculus with 73 samples.

Results

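The adenocarcinomas of the KP mouse mammary tumour model (5 tumours) were set against the adenocarcinomas of the KB2P model (23 tumours), 28 of the 73 tumours sequenced in the study. They were chosen by the labelled histology and genotype alone. In this family of models a keratin 14 promoter drives Cre recombinase in epithelial cells, so the recombined alleles are confined to the epithelial lineage and the stroma keeps its genes. By the design of the models KP tumours lose Trp53, and KB2P tumours lose Trp53 and Brca2. The labels give these genotypes as KP and KB2P only. The other adenocarcinomas of the series serve here as bystanders: 3 of the L1363P model, which carries the Brca1 p.L1363P variant on a Trp53-deficient background, and 21 of the Brca1-deficient KB1P model, of which 11 are titled KB1P and 10 KB1PM. All 28 tumours are labelled as 100% epithelial tumour, 1 library was made per tumour, and the labels do not give ages or say that the tumours came from separate animals, and p-values here speak only to the variation among the sequenced tumours.

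All 5 KP libraries were sequenced in run 5625, together with the L1363P tumours. The KB2P libraries came from run 2749 (12 tumours), run 2459 (9) and run 2802 (2), so genotype and run cannot be told apart in any value below. The KP libraries held 13103749 to 15458067 counts and the KB2P libraries 7325180 to 21818683. Levels are in CPM, each gene's counts divided by the TMM-scaled size of its library, and values of the KP tumours are always listed in the order 89.01A, 90.01A, 131.03A, 39 and 40.

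BRCA2 acts on resected DNA ends in homologous recombination, the repair pathway that copies a broken chromosome from its sister, and it shields stalled replication forks. BRCA1, with its partner BARD1 and the bridging protein PALB2, acts upstream of it. p53 arrests or kills cells with such damage, which is why mammary tumours without Brca2 arise readily when Trp53 is lost too. Mammary tumours also hold fibroblasts, vessels, macrophages and lymphocytes, whose RNA is sequenced together with that of the tumour cells.

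The labels were first checked against marker genes. Epcam, the epithelial adhesion molecule, measured 704, 1.65, 934, 691 and 655 CPM in KP and 4.83 to 1212 CPM (median 553) in KB2P. Tumour 90.01A was the lowest of all 28 tumours for Epcam, while the other 4 KP tumours lay inside the KB2P range. In 90.01A E-cadherin (Cdh1, 17.6 CPM) and the basal keratins Krt14 (3.15 CPM) and Krt5 (0.450 CPM) were also the lowest of the KP tumours. The luminal keratins Krt8 and Krt18 were at 103 and 124 CPM in that tumour, and vimentin (Vim, an intermediate filament of mesenchymal cells) and Zeb1 (a repressor of epithelial genes) were at 2207 and 224 CPM, above every KB2P tumour. The epithelial markers go against the adenocarcinoma label of this library, so results are given with and without it. One KB2P tumour also had little Epcam, 4.83 CPM.

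**Figure D1:**
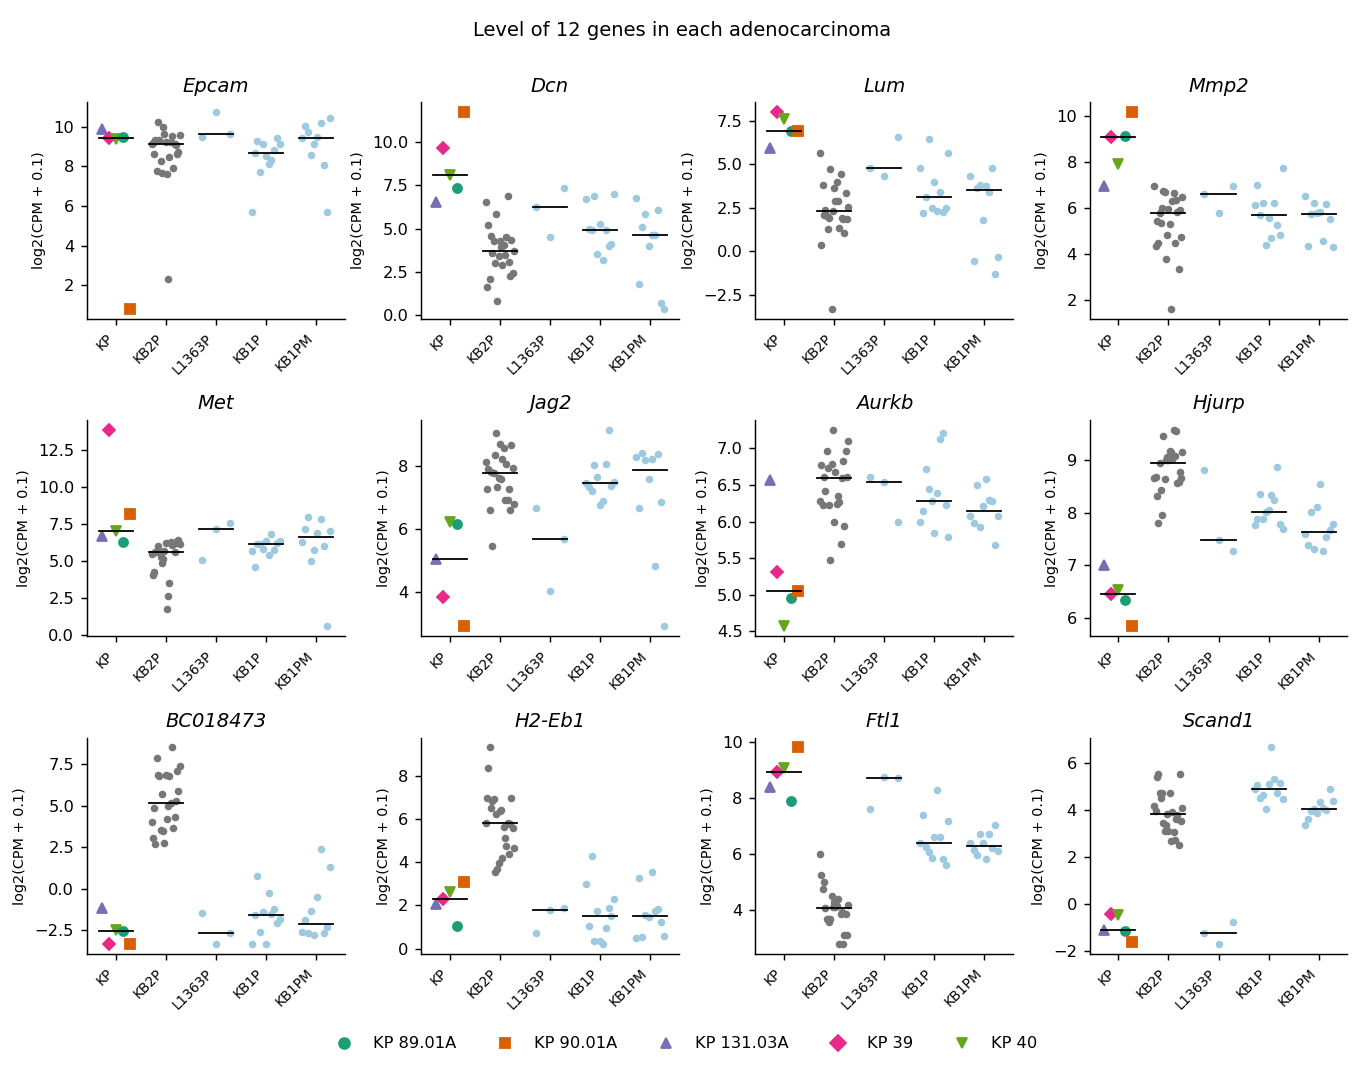
Levels of 12 genes as log2(CPM + 0.1) in each of the 52 adenocarcinomas (points) by model, with the group median as a bar and the 5 KP tumours by their own symbols. Dcn, Lum and Mmp2 lie higher and Jag2, Aurkb and Hjurp lower in most KP tumours than in KB2P, BC018473 and H2-Eb1 are high in KB2P against all 4 other groups, and Ftl1 and Scand1 have KP level with L1363P.

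The gene that separates the genotypes was read first. Brca2 measured 12.3, 34.6, 32.7, 19.1 and 17.6 CPM in KP and 18.7 to 109.6 CPM (median 44.6) in KB2P. It was therefore lower in the genotype that keeps the gene (log2 fold change -0.99, SE 0.29, adjusted p = 0.00508), with 2 KP tumours below every KB2P tumour, and did not pass against KB2P of run 2459 alone (adjusted p = 0.056). A conditional allele loses part of the gene, and a count over the whole gene does not show whether that part is missing, so these counts do not check the Brca2 labels. L1363P adenocarcinomas had 33.1 to 68.3 CPM and KB1P and KB1PM a median of 48.2.

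Brca1 measured 19.3, 43.2, 40.9, 61.04 and 22.9 CPM in KP and 25.9 to 144 CPM (median 53.0) in KB2P. It was also lower in KP (log2 fold change -0.68, adjusted p = 0.0259), the groups overlapped, and the call was lost in 9 of 22 alternative settings, among them each large KB2P run alone (adjusted p = 0.0642 and 0.0647) and without 89.01A or without 40 (adjusted p = 0.118 and 0.145). Trp53, with 16.9 to 28.1 CPM in KP and 16.5 to 58.6 CPM in KB2P, and Palb2, with 7.76 to 17.6 CPM and 9.18 to 30.3 CPM, did not pass the test (log2 fold changes -0.38 and -0.47, adjusted p = 0.16 and 0.1). Palb2 did pass without 131.03A (log2 fold change -0.70, adjusted p = 0.0261) and with offsets for the GC content and length of each gene (-0.61, adjusted p = 0.0355).

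Over the whole table, 6535 of 18492 genes tested differed at a Benjamini-Hochberg adjusted p under 0.05 (edgeR quasi-likelihood test), which is 35.3% of them. Of these, 3182 (17.2%) were higher in KP and 3353 (18.1%) lower, and the median log2 fold change of all genes was -0.10. Without tumour 90.01A, 2407 genes (13%) were higher and 2200 (11.9%) lower. Without both 90.01A and 39, the tumour with the next highest fibroblast sum, a pair chosen after the values were seen, 1671 (9.05%) were higher and 1406 (7.62%) lower. Skeletal muscle genes, ribosomal protein genes and pseudogenes are left out of all counts that follow in which a gene is named or groups are separated, which leaves 17438 genes. Of those, 3101 (17.8%) were called in all 5 tumours, again without 90.01A, and again against KB2P of run 2749 alone and of run 2459 alone, in the same direction.

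A difference between runs of 1 genotype is set beside these counts. It need not have the size of an effect of run 5625, and the share of run in these counts was not tested. KB2P of run 2749 against KB2P of run 2459 gave 1326 of 19230 genes (6.9%) in the fit of all libraries and 98 when only those 21 tumours were fitted. Within run 5625, KP against L1363P adenocarcinoma gave 12 genes (0.0649%) by edgeR's quasi-likelihood test, with 2073 genes at an unadjusted p under 0.05 and 3 tumours on the L1363P side. The comparisons with KB2P and with L1363P share the KP tumours, so their values are only set side by side.

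Levels in the bystander groups mark 3 kinds among the separated genes, and the genes named were chosen after these levels were seen. In 325 of the 17438 genes (1.86%) no KP tumour overlapped any KB2P tumour, with 133 higher and 192 lower in KP. Most of the 325 belong to none of the 3 kinds, and Adnp belongs to both the first and the third. In the first kind, run 5625 stood apart as a whole: 47 genes (0.27%) separated the KP and L1363P adenocarcinomas from every other adenocarcinoma, 39 of them lower in run 5625. Scand1, a zinc finger-associated SCAN domain protein, measured 0.346, 0.225, 0.356, 0.637 and 0.618 CPM in KP and 5.60 to 46.4 CPM (median 13.8) in KB2P. L1363P tumours had 0.202 to 0.482 CPM of Scand1 and KB1P and KB1PM a median of 21.5, so the tumours of run 5625 were low in both genotypes. The linker histone gene H1fx (KP 0.212 to 3.88 CPM, KB2P 4.33 to 66.8 CPM, L1363P 0.945 to 4.27 CPM) and the neurotrophic factor Nrtn (KP 0 to 1.94 CPM, KB2P 2.24 to 71.0 CPM, L1363P 0.270 to 1.23 CPM) showed the same order of levels. Rnaseh2c, a subunit of the ribonuclease that removes ribonucleotides from DNA, likewise lay at 4.02 to 6.87 CPM in KP, 5.71 to 8.77 CPM in L1363P and 12.1 to 77.1 CPM in KB2P.

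In the second kind KB2P stood apart from every other adenocarcinoma, which was seen in 4 genes (0.0229%), each higher in KB2P. BC018473, a gene without an assigned function, measured 0.0693, 0, 0.356, 0 and 0.0773 CPM in KP and 6.34 to 363 CPM (median 36.3) in KB2P. The highest of the 21 KB1P and KB1PM tumours had 5.22 CPM of it, below the lowest KB2P tumour. AA465934 (0.976 to 3.35 CPM in KP, 12.3 to 42.2 CPM in KB2P, 1.98 to 10.47 CPM in KB1P and KB1PM) and the respiratory complex I subunit Ndufs5 (0.214 to 0.496 CPM, 2.85 to 13.6 CPM and 0.243 to 1.11 CPM) were of the same kind, and A930005H10Rik was the fourth. BC018473 and AA465934 both lie on chromosome 11 and Ndufs5 on chromosome 4. Of the sequence of Ndufs5, cut into short words, 36% also occurs in another gene, so its counts are uncertain. The MHC class II chain H2-Eb1 came close: 1.94, 8.25, 4.06, 4.74 and 6.10 CPM in KP against 11.8 to 639 CPM (median 55.5) in KB2P (log2 fold change -4.26, SE 0.89, adjusted p = 0.000121), with L1363P at 1.56 to 3.55 CPM and a KB1P and KB1PM median of 2.74. Its partners did not share this: H2-Aa, H2-Ab1 and the invariant chain Cd74 had log2 fold changes of 0.72, -0.06 and 0.63 and did not pass (adjusted p = 0.37, 0.952 and 0.437). Of 11 MHC class II genes measured, H2-Eb1 alone was called, and against KB2P of run 2749 alone 4 were higher and 1 lower, against run 2459 alone 0 and 3.

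In the third kind KP stood apart from every other adenocarcinoma, the L1363P tumours of its own run included. There were 19 such genes (0.109%), 17 of them lower in KP, and 7 of the 19 lie on chromosome 19, which holds 536 of the genes tested. Chromosome 19 also holds 6 of the 47 genes of the first kind. Between KB2P of run 2749 (12 tumours) and of run 2459 (9), 13 genes (0.0745%) did not overlap. Hjurp, the chaperone that places the centromeric histone CENP-A, measured 81.2, 57.4, 129, 87.7 and 92.3 CPM in KP and 225 to 758 CPM (median 487) in KB2P. All 5 KP tumours lay below the lowest of the other 47 adenocarcinomas, which was 154 CPM (log2 fold change -2.41, SE 0.24, adjusted p = 1.5e-12 against KB2P). Other kinetochore and centromere genes were of this kind, Spc24 of the NDC80 complex (log2 fold change -2.02, SE 0.27) and Cenpm (-2.18, SE 0.37), as was Pold1, the catalytic subunit of DNA polymerase delta. Against L1363P, the log2 fold changes of Hjurp and Spc24 were -1.54 and -1.52, both past the threshold (adjusted p = 0.00455 and 0.0497), while those of Cenpm and Pold1 were -1.61 and -1.29 and did not pass (adjusted p = 0.135 and 0.0944). Vegfb, a ligand of the VEGF receptor FLT1, was at 12.2 to 14.1 CPM in KP and 22.4 to 57.3 CPM in KB2P. The 2 higher genes were Cdc42, a small GTPase of the actin cytoskeleton (439.5 to 705 CPM in KP, 164 to 401 CPM in KB2P), and Tmtc3, an O-mannosyltransferase of the endoplasmic reticulum (80.7 to 125 CPM and 19.04 to 64.1 CPM).

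Fibroblast and endothelial genes were higher in KP. Of 20 fibroblast and collagen genes measured, 14 rose in KP and none fell, with a median log2 fold change of 1.94, and the counts were 14 and 0 whichever single KP tumour was left out and 9 and 0 without 90.01A and 39. Lumican (Lum), a proteoglycan that spaces collagen fibrils, measured 119, 119.9, 61.2, 257 and 194 CPM in KP and 0 to 51.1 CPM (median 4.85) in KB2P. Every KP tumour lay above every KB2P tumour (log2 fold change 4.02, SE 0.60, adjusted p = 2.45e-07). Decorin (Dcn), a related proteoglycan, measured 161, 3327, 92.3, 812 and 272 CPM against 1.66 to 117 CPM (median 13.0) (log2 fold change 5.34, SE 0.63, adjusted p = 4.32e-10). Tumour 131.03A lay inside the KB2P range and 90.01A far above it.

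The fibrillar collagen genes followed. Col3a1 measured 1616, 4964, 1574, 6795 and 3849 CPM in KP and 77.0 to 2525 CPM (median 373) in KB2P (log2 fold change 2.99, SE 0.44), and Col1a2 and Col1a1 had log2 fold changes of 2.65 and 2.17. Col1a1 did not pass without 90.01A and 39 (1.04, adjusted p = 0.302). Periostin (Postn), a matrix protein of activated fibroblasts, was highest in 89.01A, with 5582, 1027, 916, 2387 and 3012 CPM in KP and 94.4 to 1102 CPM (median 249) in KB2P. Lysyl oxidase (Lox), which cross-links collagen, measured 73.2, 2221, 142, 311 and 228 CPM against 3.23 to 128 CPM (median 23.3), above all KB2P tumours in 4 of 5 (log2 fold change 4.37, SE 0.55, adjusted p = 2.68e-09). L1363P adenocarcinomas had 19.7 to 95.3 CPM of Lum and 509.7 to 1063 CPM of Postn, and the KP minus L1363P log2 fold changes were 1.66 and 1.57, neither past the threshold. In bulk tissue a change in the number of fibroblasts and a change of RNA per fibroblast cannot be told apart, here and for every cell type below.

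**Figure D2:**
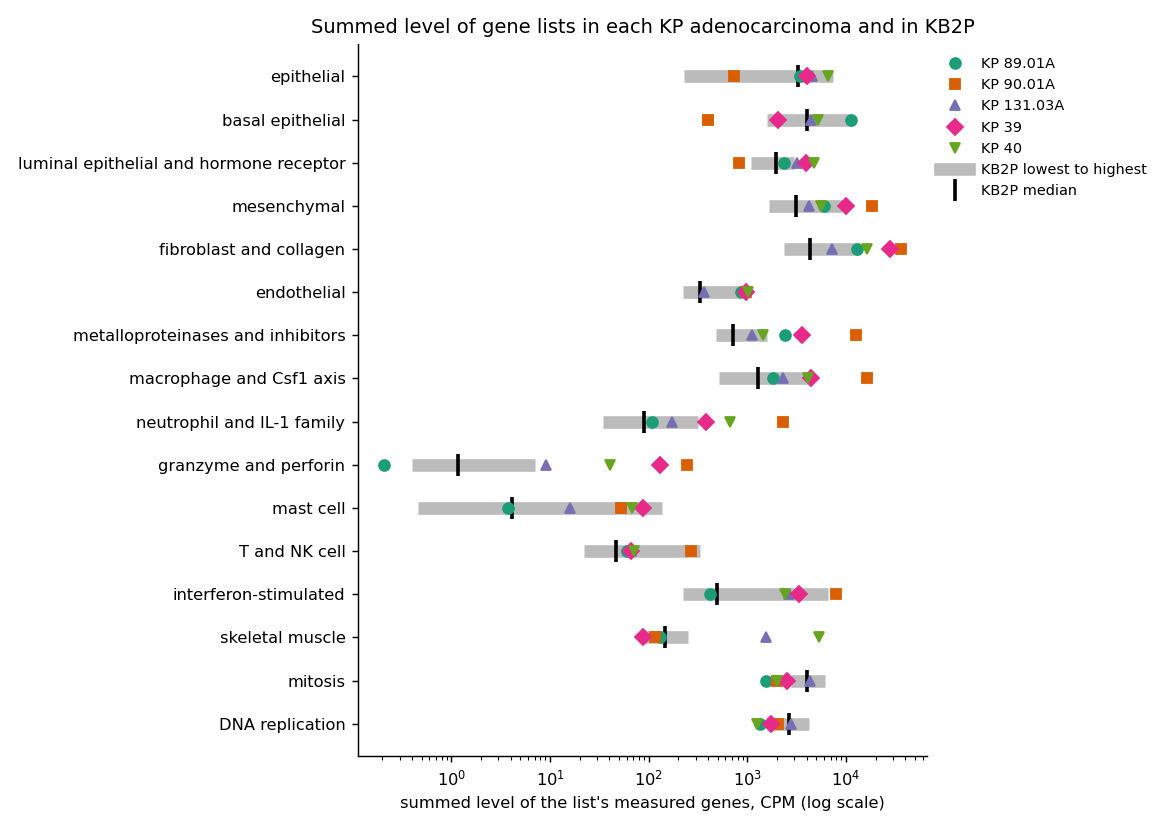
Summed CPM of the measured genes of 16 lists, on a log axis, in each KP tumour (symbols) over the range (grey bar) and median (tick) of the 23 KB2P tumours. Fibroblast sums of 90.01A, 39 and 40 lie above the KB2P range, 90.01A is lowest in basal and luminal genes, and skeletal muscle sums stand out in 131.03A and 40 only.

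Summed over its measured genes, the fibroblast list gave 12998, 36329, 7264, 27989 and 16345 CPM in KP and 2365 to 13715 CPM (median 4289) in KB2P. The sums rank 90.01A first and 39 next, and 89.01A and 131.03A lay within the KB2P range. The endothelial list, of which 9 of 17 genes rose and none fell, summed to 861, 977, 364, 965 and 1012 CPM against 224 to 844 CPM (median 328), above all KB2P in every KP tumour but 131.03A. Its defining adhesion gene Pecam1 measured 312, 189, 55.4, 149 and 174 CPM in KP and 23.6 to 86.5 CPM (median 38.7) in KB2P. The difference was largest in 89.01A and held without 90.01A and 39, when 5 of the list's genes rose (log2 fold change 1.94, and 2.02 without these 2 tumours). VE-cadherin (Cdh5) rose by 1.55 and the VEGF receptor Kdr by 1.07 on the log2 scale, and Kdr did not pass without 90.01A and 39 (adjusted p = 0.177). Of 13 smooth muscle and pericyte genes, 1 rose and 1 fell (median log2 fold change -0.20), and the sums of all 5 KP tumours lay inside the KB2P range.

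Many genes of matrix-degrading enzymes and their inhibitors were also higher in KP. Of 24 metalloproteinases and inhibitors measured, 14 rose and 1 fell, and without 90.01A and 39 the counts were 4 and 0. The list summed to 2408, 12570, 1112, 3545 and 1442 CPM in KP and 476 to 1576 CPM in KB2P. Tumours 89.01A, 90.01A and 39 lay above the KB2P range, while in the fibroblast sums 90.01A, 39 and 40 did. Gelatinase A (Mmp2), made mainly by fibroblasts, measured 554, 1154, 124, 544 and 238 CPM in KP and 2.93 to 124 CPM (median 55.3) in KB2P (log2 fold change 3.27, SE 0.42, adjusted p = 5.45e-09). The groups met at their edges, 131.03A being the lowest KP tumour and only just above the highest KB2P tumour. Stromelysin (Mmp3) measured 8.59, 7010.1, 17.6, 135 and 46.1 CPM in KP against 0 to 39.7 CPM (median 1.71) in KB2P, far higher in 90.01A than in any other tumour. Its log2 fold change was 8.31 with all tumours and 3.57 without 90.01A, and collagenase 3 (Mmp13), at 4.57, 699, 45.9, 579.9 and 9.20 CPM, was high in 90.01A and 39 only. Mmp3 and Mmp13 both lie within 1.5 Mb of Yap1, among neighbouring genes that were high in 90.01A and are described below.

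Several other genes were high in all KP tumours. C1qtnf3, a secreted C1q and TNF related protein, measured 496, 14.5, 47.0, 52.5 and 141 CPM in KP and 0.0863 to 7.86 CPM (median 2.96) in KB2P. No tumour overlapped, and the log2 fold change was 5.60 with all tumours and 6.25 without 90.01A and 39. It also separated run 5625 from the rest, with 14.6 to 24.9 CPM in L1363P. Cyclooxygenase 2 (Ptgs2), the inducible enzyme of prostaglandin synthesis, measured 9.49, 529.7, 14.5, 108 and 9.66 CPM against 0.123 to 7.84 CPM (median 2.06), again without overlap (log2 fold change 5.66, SE 0.68, adjusted p = 8.54e-10), and did not pass without 90.01A and 39 (adjusted p = 0.0649). Alpha-B crystallin (Cryab), a small heat shock protein, had 37.7 to 159.7 CPM in KP and 2.15 to 26.3 CPM in KB2P. The TGF-beta receptor genes Tgfbr1 and Tgfbr2 were both called higher. Tgfbr1 went from a KB2P median of 82.3 CPM to 141 to 174 CPM in KP, and Tgfbr2 rose by 1.73 on the log2 scale. Of 25 TGF-beta and BMP pathway genes 4 rose and 2 fell, no larger a share than the 17.2% and 18.1% of all genes. The summed list of every KP tumour lay inside the KB2P range. Tgfbr1 did not pass with GC and length offsets (adjusted p = 0.138).

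**Figure D3:**
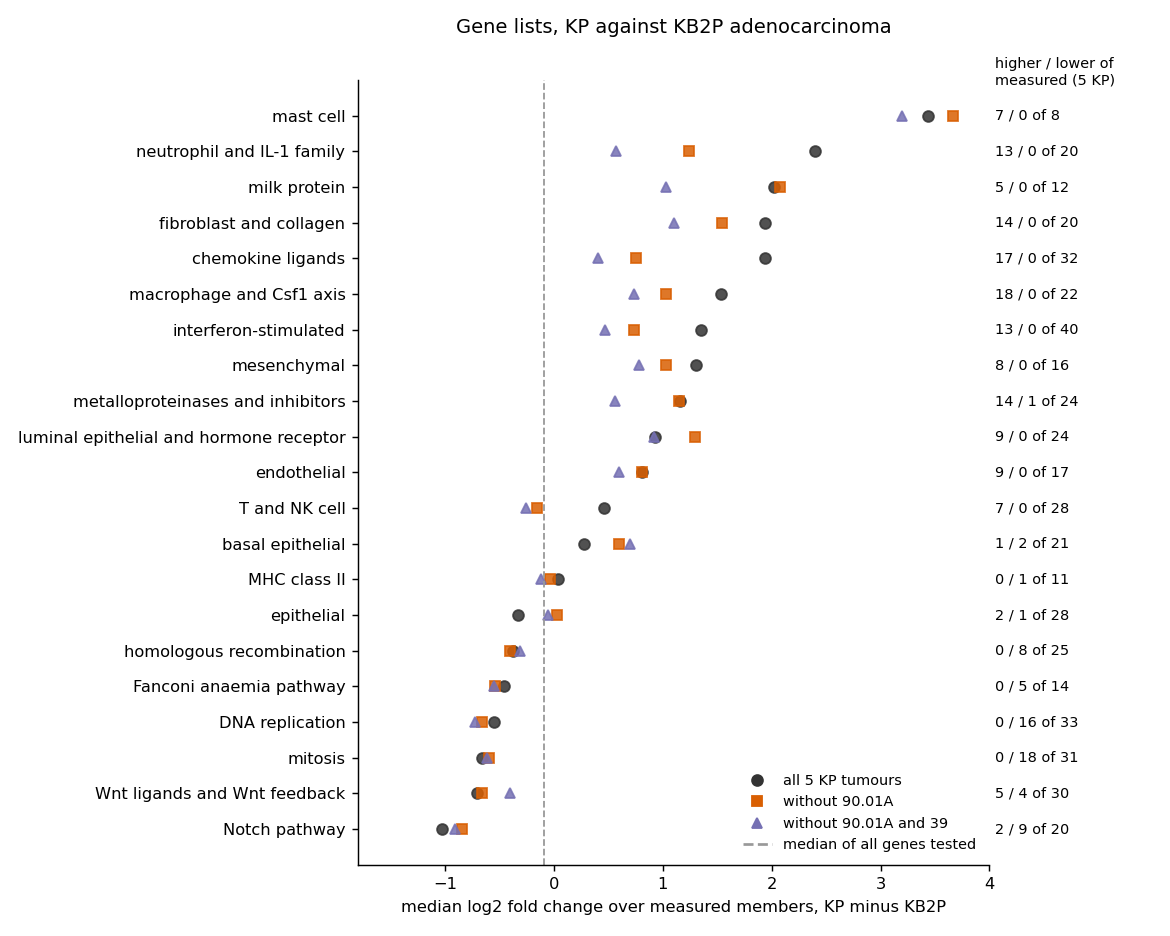
Median log2 fold change (KP minus KB2P) over the measured genes of 21 lists with all 5 KP tumours, without 90.01A, and without 90.01A and 39, and at the right the genes higher and lower with all 5. Fibroblast, mast cell and luminal lists stay at 0.92 or more in these 3 settings (the luminal median is 0.18 without tumour 40), while neutrophil, chemokine and interferon medians shrink as the tumours are left out.

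Macrophage genes were higher in KP, to an extent that depended on 90.01A. Of 22 genes of macrophages and the Csf1 axis, 18 rose and none fell (median log2 fold change 1.53); 10 rose without 90.01A and 3 without 90.01A and 39. The mannose receptor Mrc1, found on tissue-resident macrophages, measured 51.1, 759.7, 103, 273 and 172 CPM in KP and 7.37 to 97.3 CPM (median 23.2) in KB2P. It was above every KB2P tumour in 4 of 5 and passed in all 3 settings (log2 fold change 3.26, and 1.96 without the 2 tumours). The CSF1 receptor gene Csf1r (90.4, 627, 133, 306 and 239.6 CPM against 18.8 to 288 CPM (median 56.8)) and Adgre1, which encodes F4/80, rose by 1.86 and 2.13, and neither passed without 90.01A and 39. The fractalkine receptor Cx3cr1 did pass there (1.66). The summed list was 1825, 16186, 2312, 4459 and 4142 CPM in KP and 522 to 4125 CPM (median 1297) in KB2P, so 90.01A was far above both groups and 89.01A and 131.03A were inside the KB2P range.

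Cytotoxic granule genes were higher in KP. Of 9 granzyme and perforin genes measured, 8 rose with all tumours, 7 without 90.01A and 3 without 90.01A and 39. Granzyme C (Gzmc) measured 0, 96.9, 2.14, 34.6 and 12.4 CPM in KP and 0 to 0.856 CPM (median 0.0828) in KB2P, and granzyme F (Gzmf) 0, 23.0, 0, 26.1 and 7.73 CPM against at most 0.0522 CPM. Perforin (Prf1), which opens the target membrane, measured 0.0693, 30.5, 0.356, 9.14 and 3.71 CPM against 0 to 2.96 CPM (median 0.190). Tumours 90.01A, 39 and 40 were above every KB2P tumour in all 3 genes, and 89.01A was near 0. The list summed to 0.208, 247, 9.12, 131 and 40.3 CPM in KP and 0.396 to 7.10 CPM in KB2P. Tumour 89.01A thus lay below every KB2P tumour and the other 4 above. The T-cell receptor subunit Cd3e was at 0.416, 12.1, 1.28, 2.55 and 2.63 CPM in KP and 0 to 23.8 CPM in KB2P, and did not pass (log2 fold change 0.32, adjusted p = 0.815). In the list of 28 T and NK cell genes 7 rose with all tumours, 2 without 90.01A and 0 without 90.01A and 39. Over all genes 17.2%, 13.0% and 9.05% were higher in these 3 settings, the shares to set beside the counts of every immune list here.

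Mast cell genes were called in 7 of 8 cases and neutrophil and IL-1 genes in 13 of 20, all higher in KP. Carboxypeptidase A3 (Cpa3), a mast cell granule enzyme, measured 0.831, 2.93, 3.56, 15.2 and 15.1 CPM in KP and 0 to 2.13 CPM (median 0.148) in KB2P, and Mcpt4, a mast cell chymase, 0.693, 1.35, 3.99, 12.0 and 11.9 CPM against 0 to 2.56 CPM (median 0.105). Tumours 39 and 40 were the highest of both groups in both genes, and the levels are low. The mast cell list summed to 3.74, 52.1, 16.0, 87.4 and 67.8 CPM in KP and 0.463 to 137 CPM (median 4.17) in KB2P, so no KP tumour lay above the KB2P range. Against KB2P of run 2459 alone 4 of the 8 were called, and the median log2 difference of these genes between KB2P runs 2749 and 2459 was -2.01. The neutrophil attractant Cxcl5 measured 1.32, 389, 9.62, 37.8 and 6.95 CPM against 0.0558 to 6.25 CPM (median 0.261), led by 90.01A. Of 20 neutrophil and IL-1 genes, 5 were called without 90.01A and 2 without 90.01A and 39, and of 32 chemokine ligands 17, 8 and 4 were called in these 3 settings, none lower in KP.

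Interferon-stimulated genes varied widely within KP and within KB2P. Of 40 measured, 13 rose and none fell with all tumours, 7 rose without 90.01A and 0 without 90.01A and 39. Ifit2, an interferon-induced inhibitor of translation, measured 11.6, 303, 55.7, 67.8 and 56.1 CPM in KP and 2.12 to 65.8 CPM (median 6.69) in KB2P, lowest in 89.01A. Rsad2 (viperin) and the GTPase Iigp1 were likewise lowest in 89.01A and highest in 90.01A, with 1.94 and 5.20 CPM in 89.01A and 233 and 571 CPM in 90.01A. Against KB2P of run 2749 alone 26 of the 40 were higher, and against KB2P of run 2459 alone 4. The median log2 difference of these genes between the 2 runs was -1.35, beside a KP minus KB2P median of 1.35.

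Of 24 luminal epithelial and hormone receptor genes, 9 rose in KP and none fell (median log2 fold change 0.93), and without 90.01A the counts were 9 and 0. Without tumour 40 they were 4 and 2, with a median of 0.18, where 16.1% of all genes were higher and 13.3% lower. Against KB2P of run 2749 alone they were 4 and 0, where 14.8% of all genes were higher, so in both settings the share of luminal genes that rose was near that of all genes. In the general epithelial list 2 of 28 rose and 1 fell. The prolactin receptor gene Prlr measured 55.2, 0.901, 56.3, 139 and 917 CPM in KP and 0.345 to 64.2 CPM (median 10.1) in KB2P. It was highest in tumour 40 and lowest in 90.01A (log2 fold change 3.79, SE 0.72, adjusted p = 2.9e-05). The oestrogen receptor gene Esr1 measured 8.52, 16.0, 8.84, 23.6 and 84.0 CPM against 0.475 to 38.5 CPM (median 3.50) (log2 fold change 1.82), and its luminal partner Gata3 7.27, 15.4, 10.8, 48.0 and 144 CPM against 0.812 to 65.6 CPM (median 2.91) (2.29). Tumour 40 exceeded every KB2P tumour in all 3 genes, and without it none of the 3 passed (Prlr 1.94, adjusted p = 0.0579, Esr1 0.88, adjusted p = 0.284, Gata3 1.19, adjusted p = 0.21).

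The progesterone receptor Pgr, a target of the oestrogen receptor, rested on that tumour: 16.0, 1.501, 13.8, 1.56 and 235 CPM in KP and 0 to 55.0 CPM (median 4.39) in KB2P, with a log2 fold change of 2.50 and of -0.18 without tumour 40. Milk protein genes were called in 5 of 12 cases, all higher in KP, and without tumour 39 3 were higher and 1 lower. Casein alpha S1 (Csn1s1) measured 21.96, 0.675, 10.8, 551 and 340.2 CPM against 0 to 42.7 CPM (median 2.93), above the KB2P range in 39 and 40, while xanthine dehydrogenase (Xdh), needed for milk fat secretion, rose by 2.59 with 90.01A the highest. The neural crest and mammary progenitor factor Sox10 went the other way, with 317, 0.150, 211, 249.98 and 185 CPM in KP and 328 to 1055 CPM (median 656) in KB2P. Every KP tumour lay below every KB2P tumour, yet the call (log2 fold change -1.79, adjusted p = 0.0365) was lost in 10 of 22 alternative settings, among them without any one of 90.01A, 131.03A, 39 and 40, with adjusted p up to 0.0986 without 90.01A.

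Of 20 Notch pathway genes, 9 fell in KP and 2 rose (median log2 fold change -1.03), 4 fell and 0 rose without 90.01A, and 2 fell without 90.01A and 39. With GC and length offsets the split was 4 higher and 4 lower, and the summed list of every KP tumour lay inside the KB2P range. The ligand Jag2 measured 71.2, 7.35, 33.1, 14.2 and 74.7 CPM in KP and 44.2 to 529 CPM (median 220.0) in KB2P. Tumours 90.01A, 131.03A and 39 lay below every KB2P tumour (log2 fold change -2.52, SE 0.60, adjusted p = 0.000729), and L1363P adenocarcinomas were at 16.1 to 102 CPM. The ligand Dll1 measured 49.3, 2.40, 40.6, 26.5 and 53.5 CPM against 16.8 to 752 CPM (median 113) and did not pass without 90.01A (adjusted p = 0.0586), and the feedback inhibitor Nrarp, an early Notch target, fell by 1.31 on the log2 scale. The receptor Notch2 rose, with 73.8, 442, 381, 174 and 109 CPM in KP and 43.2 to 377 CPM (median 90.1) in KB2P, and did not pass without 90.01A (adjusted p = 0.0748). It lies in a window of 6 genes on chromosome 3 that were high in 131.03A. Their median log2 ratio to the median of the other 4 KP tumours was 2.02.

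Of 30 Wnt ligands and feedback genes, 5 rose and 4 fell, no larger a share than the 17.2% and 18.1% of all genes. The genes lower in KP numbered 1 without 90.01A, 2 without 39 or without 40, 7 against KB2P of run 2749 alone and 2 against run 2459 alone. Nkd1, a Wnt feedback inhibitor, measured 7.69, 0.675, 7.84, 4.96 and 6.10 CPM in KP and 1.26 to 539 CPM (median 22.8) in KB2P, and 20 KB2P tumours exceeded every KP tumour (log2 fold change -3.57, adjusted p = 0.0576 without 90.01A). The feedback ubiquitin ligase Znrf3 was at 26.0, 18.5, 32.3, 24.4 and 26.0 CPM against 16.8 to 239.7 CPM (median 55.7) (log2 fold change -1.41). The secreted antagonist Dkk2 was higher in every KP tumour (9.21, 79.5, 9.55, 18.9 and 11.8 CPM) than in any KB2P tumour (0.188 to 5.34 CPM), with a log2 fold change of 3.88.

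Proliferation genes were lower in 4 of 5 KP tumours. Of 31 mitosis genes, 18 fell and none rose. Between 12 and 25 fell as each KP tumour was left out in turn, the 25 without 131.03A, 10 fell without 90.01A and 39, none rose in any of these, and the median log2 fold change was -0.66. Many mitotic genes share a promoter structure in which a cell cycle homology element (here the letters TTTGAA) sits with CCAAT boxes bound by NF-Y, and the MMB and DREAM complexes act through it. The promoters of 4 members that fell are shown because they carry this structure, as RefSeq sequence of GRCm38.p6 from 250 bases before to 50 after the transcription start, with TTTGAA and CCAAT on either strand in capitals. Cdk1, the mitotic kinase, lies at chr10:69352863-69353162, minus strand, Ube2c, a ubiquitin-conjugating enzyme of the anaphase-promoting complex, at chr2:164769679-164769978, plus strand, and the mitotic kinases Plk1 and Aurka at chr7:122159185-122159484, plus strand, and chr2:172370521-172370820, minus strand.
Cdk1: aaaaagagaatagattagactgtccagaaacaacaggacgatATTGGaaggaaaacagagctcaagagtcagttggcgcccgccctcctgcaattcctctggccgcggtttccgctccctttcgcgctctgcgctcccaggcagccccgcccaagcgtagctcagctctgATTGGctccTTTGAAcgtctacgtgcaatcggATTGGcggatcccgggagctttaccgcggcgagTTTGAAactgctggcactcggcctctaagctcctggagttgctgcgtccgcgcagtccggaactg
Ube2c: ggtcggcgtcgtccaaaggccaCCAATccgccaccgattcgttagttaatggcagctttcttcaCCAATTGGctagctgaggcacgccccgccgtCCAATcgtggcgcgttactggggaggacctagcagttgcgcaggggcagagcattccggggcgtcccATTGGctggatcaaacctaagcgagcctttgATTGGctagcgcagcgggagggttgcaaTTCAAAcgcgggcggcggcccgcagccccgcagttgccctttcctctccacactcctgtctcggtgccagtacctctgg
Plk1: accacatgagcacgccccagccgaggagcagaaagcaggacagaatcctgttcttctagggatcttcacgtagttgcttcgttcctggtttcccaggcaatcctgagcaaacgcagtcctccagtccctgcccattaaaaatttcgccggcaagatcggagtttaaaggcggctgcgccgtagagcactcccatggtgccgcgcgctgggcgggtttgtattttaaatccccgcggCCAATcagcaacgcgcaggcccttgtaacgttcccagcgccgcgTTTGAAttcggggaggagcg
Aurka: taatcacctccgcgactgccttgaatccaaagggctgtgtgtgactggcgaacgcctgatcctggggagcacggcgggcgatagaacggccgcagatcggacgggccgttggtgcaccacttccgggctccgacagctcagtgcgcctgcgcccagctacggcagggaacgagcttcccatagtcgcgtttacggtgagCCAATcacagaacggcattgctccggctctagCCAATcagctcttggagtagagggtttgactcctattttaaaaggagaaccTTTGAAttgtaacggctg

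Both motifs, searched as these letters on both strands, were present together in 12 of the 15 promoters of called mitosis genes that the RefSeq table held (80%). The table matched 15 of the 18 called genes. Among all 32851 promoters of this length 17.9% held TTTGAA, 37.4% held CCAAT and 6.95% held both, and among members not called 36.4% of 11 promoters held both. The promoter of Mybl2, a subunit of the MMB complex, held neither word in this window.

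All 4 of these genes fell. Cdk1 measured 82.6, 130.4, 198, 101 and 91.0 CPM in KP and 87.7 to 1246 CPM (median 211) in KB2P (log2 fold change -1.54, SE 0.49, adjusted p = 0.0114). Ube2c was at 35.3, 33.3, 98.9, 58.6 and 42.6 CPM against 50.3 to 264 CPM (median 127), and Plk1 at 25.7, 36.6, 64.8, 38.4 and 31.8 CPM against 38.5 to 128 CPM (median 88.1), with log2 fold changes of -1.29 and -1.11. Tumour 131.03A was the highest KP tumour in all 3 genes. Aurka measured 32.9, 34.1, 84.7, 39.8 and 38.3 CPM in KP and 49.7 to 181 CPM (median 85.4) in KB2P, and Aurkb, its partner kinase at the centromere, 30.9, 33.1, 94.9, 39.6 and 23.6 CPM against 44.2 to 153 CPM (median 97.1), each with 4 KP tumours below every KB2P tumour.

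Mybl2 (log2 fold change -1.37) and the proliferation marker Mki67 (-1.06, with 183 to 514 CPM in KP and 289 to 1137 CPM in KB2P) also fell. Cyclin B1 (Ccnb1) did not, with a log2 fold change of 0.32 (adjusted p = 0.42). The summed list was 1549, 2000.5, 4299, 2504 and 1989 CPM in KP and 2755 to 6058 CPM (median 4067) in KB2P. The same list had a median KP minus L1363P log2 fold change of -0.81 within run 5625. The 4 tumours low in mitosis genes include the 3 with the highest fibroblast sums, and the part of cell composition in this result was not tested. Tumour 89.01A had the lowest mitosis sum. Its fibroblast sum (12998 CPM) was near the KB2P maximum (13715 CPM), and its endothelial sum (861 CPM) was above every KB2P tumour (at most 844 CPM).

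Of 33 DNA replication genes measured, 16 fell and none rose, again 16 without 90.01A and 14 without 90.01A and 39, with a median of -0.55 and, against L1363P, of -0.90. The list summed to 1335, 2035, 2799, 1728 and 1254 CPM in KP and 1687 to 4185 CPM (median 2617) in KB2P, with 89.01A and 40 below the KB2P range and 131.03A above the KB2P median. Pold1 measured 13.2, 24.5, 32.6, 19.7 and 16.2 CPM in KP and 36.3 to 148 CPM (median 89.1) in KB2P, with no overlap (log2 fold change -2.11, SE 0.26, adjusted p = 1.53e-09). The flap endonuclease Fen1, which trims Okazaki fragments, fell by 2.19 on the log2 scale from low levels (0.428 to 1.35 CPM in KP, 1.32 to 7.42 CPM in KB2P). The replicative helicase subunit Mcm5 measured 62.6, 98.5, 76.6, 82.9 and 41.0 CPM against 76.3 to 404 CPM (median 155), and PCNA (Pcna), the sliding clamp, had a log2 fold change of 0.01 (adjusted p = 0.96).

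Of 25 homologous recombination genes measured, 8 fell in KP and none rose (median log2 fold change of the list -0.38), beside 18.1% lower over all genes. The counts were 7 without 90.01A, 12 without 131.03A, 5 without 90.01A and 39, and 12 with GC and length offsets. Without tumour 40, and against KB2P of run 2459 alone, 1 gene rose and 6 and 5 fell. The list summed to 956, 982, 1526, 908 and 820.1 CPM in KP and 910.0 to 1495 CPM (median 1180.4) in KB2P, with 39 and 40 below the KB2P range and 131.03A above it. Xrcc3, a homologous recombination gene, measured 9.14, 4.35, 3.71, 5.67 and 10.4 CPM in KP and 14.7 to 121 CPM (median 31.0) in KB2P. All KP tumours lay below all KB2P tumours (log2 fold change -2.44, SE 0.30, adjusted p = 1.07e-09), L1363P was at 8.23 to 16.1 CPM and the KB1P and KB1PM median was 19.5. Bard1, the obligate partner of BRCA1, measured 6.72, 8.33, 33.9, 15.8 and 14.2 CPM against 18.4 to 113 CPM (median 34.3) and fell by 1.54, in 4 of 5 tumours below every KB2P tumour.

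Rad54b, a DNA translocase of the same pathway, fell by 1.27, and Rad52, which anneals single strands, by 0.75 (adjusted p = 7.73e-05 and 0.00805). Rad52 did not pass without 90.01A and 39, without 131.03A and 40, or at a minimum fold of 1.5 (adjusted p = 0.112, 0.137 and 0.249). The resection factor Rbbp8 (CtIP) had a log2 fold change of -0.01 (adjusted p = 0.989). In the Fanconi anaemia pathway, which unhooks DNA crosslinks, 5 of 14 fell and none rose, beside 18.1% lower over all genes. The number lower was 4 without 90.01A, without 39 or without 40, and 6 without 131.03A. The pathway's central component Fancd2 measured 10.0, 23.1, 31.0, 16.2 and 10.1 CPM against 17.4 to 86.2 CPM (median 30.1). Tumour 131.03A, the KP tumour with the highest mitosis sum, was also the highest of the 5 for Bard1, Rad54b and Fancd2.

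Abcb1 transporters carry several drugs, among them PARP inhibitors, out of cells. They belong to a list of 8 drug efflux transporters of the ABC family, of which 4 rose and 1 fell, beside 17.2% and 18.1% of all genes. The list summed to 278, 806, 228, 289 and 389 CPM in KP and 143 to 488 CPM in KB2P. Only 90.01A lay above the KB2P range. Abcb1a measured 4.23, 49.8, 9.76, 13.5 and 12.8 CPM in KP and 0.315 to 4.99 CPM (median 1.06) in KB2P (log2 fold change 3.66, SE 0.42, adjusted p = 2.55e-10), and Abcb1b 10.2, 129, 16.0, 40.9 and 13.0 CPM against 0.502 to 26.6 CPM (median 2.699). Tumour 90.01A was highest in both, and Abcb1a passed without 90.01A and 39 (log2 fold change 2.66) while Abcb1b did not (adjusted p = 0.0622). The 2 genes share sequence (23.2% and 25.2% of their 31-base words occur in another gene), so reads could be split between them.

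Some of the largest values belonged to single tumours and to runs of neighbouring genes. Met, the receptor tyrosine kinase for hepatocyte growth factor (chr6:17463800-17573980, plus strand), measured 75.8, 284, 102, 14956 and 132 CPM in KP and 3.31 to 83.6 CPM (median 48.6) in KB2P. Tumour 39 exceeded the next KP tumour by more than an order of magnitude. The KP values of 284, 102 and 132 CPM also lay above the KB2P maximum of 83.6 CPM, while 75.8 CPM lay inside the range. The call was lost in 1 of 22 alternative settings and was kept without tumour 39 alone. It was lost without both 90.01A and 39, when the log2 fold change went from 6.02 to 1.12 (adjusted p = 0.283). Of 11 other genes within 1.5 Mb of Met, 5 were higher in tumour 39 than in any other KP and any KB2P tumour, among them Capza2, an actin-capping subunit (213, 464, 285, 7029 and 274 CPM), and Tes (1571 CPM). Osteopontin (Spp1), a secreted phosphoprotein on chromosome 5, was also highest in that tumour, with 158, 2063, 609, 16372 and 521 CPM in KP and 12.9 to 1166 CPM (median 79.8) in KB2P.

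**Figure D4:**
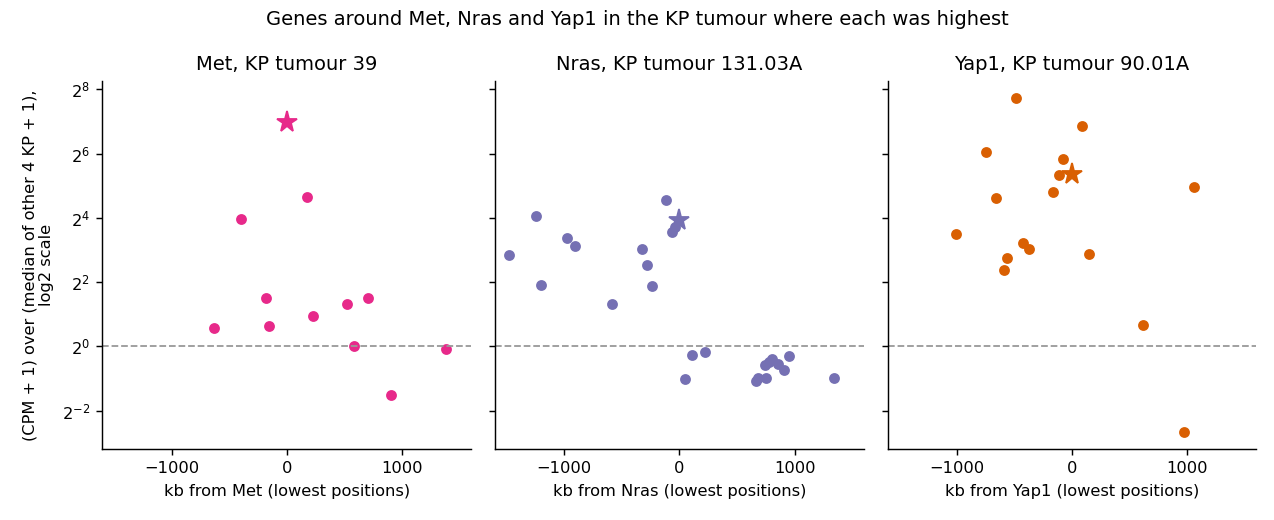
Ratio of the level in the named KP tumour to the median of the other 4 KP tumours (1 CPM added to both), on a log2 axis, for tested genes within 1.5 Mb of Met, Nras and Yap1 (stars), against distance in kb. Around Yap1 most neighbours lie above 1, around Met 2 neighbours stand out, and around Nras all 12 genes on the lower side lie above 1 and all 13 on the upper side below 1.

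In tumour 131.03A Nras, a small GTPase of growth factor signalling (chr3:103058285-103067914, plus strand), was high. It measured 117, 216, 2897, 216 and 164 CPM in KP and 77.8 to 258 CPM (median 134) in KB2P. The other 4 KP tumours lay inside the KB2P range, and without 131.03A the log2 fold change went from 2.22 to 0.21. Around Nras the change had an edge. All 12 neighbours on the side of lower coordinates were above the median of the other KP tumours, and all 13 on the other side were below it, beginning with Dennd2c (13.2 CPM), whose start lies 44 kb from that of Nras.

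In tumour 90.01A Yap1, the transcriptional coactivator of the Hippo pathway (chr9:7931999-8004596, minus strand), was high. It measured 446, 9834, 164, 219 and 254 CPM in KP and 177 to 610.4 CPM (median 290.2) in KB2P, and without 90.01A the log2 fold change went from 2.83 to -0.14. Of 16 neighbours within 1.5 Mb, 14 were above all other KP and all KB2P tumours, including the inhibitors of apoptosis Birc2 (1980.5 CPM) and Birc3 (2069.7 CPM), Dcun1d5 (4027 CPM), and Mmp3 and Mmp13 described above. Ankrd1, a gene known as a YAP1 target and located on chromosome 19, measured 22.2, 274, 3.71, 17.8 and 15.8 CPM in KP and 0.0927 to 12.0 CPM (median 1.56) in KB2P. In tumour 40, Lamp2 (523, 916, 434, 557 and 6178 CPM) and Cul4b (78.7, 131, 114, 113 and 854 CPM) on the X chromosome were high. DNA copy number was not analysed here, so whether these stretches are amplified was not tested.

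Technical properties of the genes moved with the comparison. Median log2 fold changes ran from 0.35 in the lowest of 5 equal bins of genes by GC content to -0.62 in the highest, and from -0.56 in the bin of the shortest transcripts to 0.16 in that of the longest. The same medians between the 2 KB2P runs went from 0.19 to -0.25 over GC, and those of KP minus L1363P from 0.08 to 0.00. With offsets for GC and length they lay between -0.05 and -0.11 over GC. Their part in single results was not tested beyond the values given with these offsets.

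**Figure D5:**
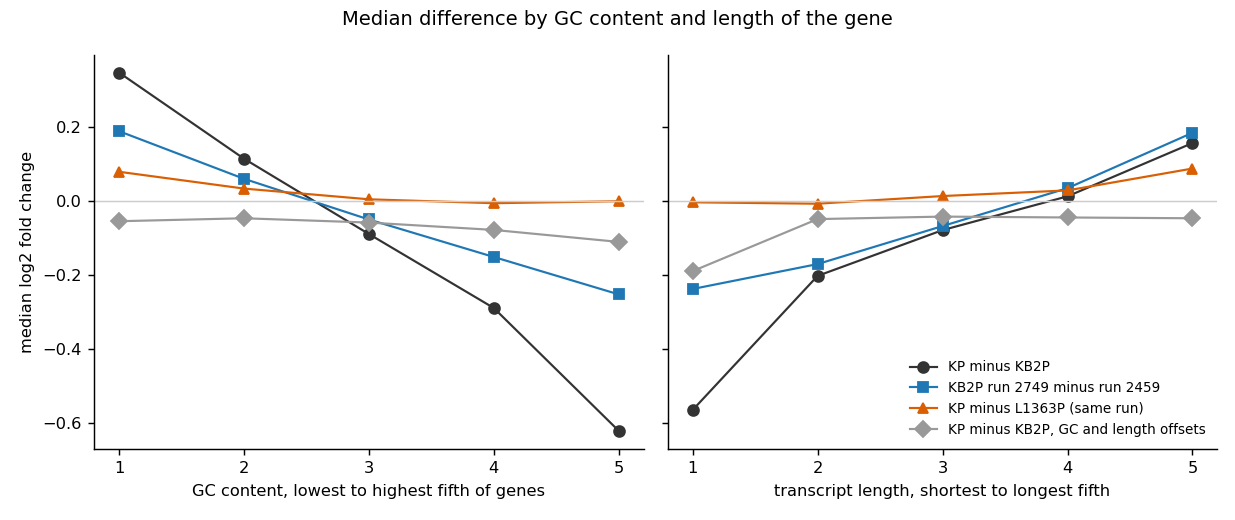
Median log2 fold change in 5 equal bins of the tested genes by GC content (left) and by length of the longest transcript (right), for KP minus KB2P with and without GC and length offsets, for KB2P run 2749 minus run 2459, and for KP minus L1363P within run 5625. The slope over GC is steepest for KP minus KB2P, of the same sign but smaller between the KB2P runs, and close to flat within run 5625.

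Genes that share sequence with others were called more often. Where over 50% of a gene's 31-base words occur in another gene, 48.4% of 467 genes were called and the median absolute log2 fold change was 1.17, against 33.6% of 15448 genes and 0.64 where under 10% are shared. Ferritin light chain 1 (Ftl1), with 85.4% shared, measured 236, 896, 333, 490.0 and 538 CPM in KP and 6.70 to 62.8 CPM (median 16.4) in KB2P (log2 fold change 4.74, SE 0.26, adjusted p = 3.49e-24). L1363P tumours had 196 to 425 CPM of Ftl1 and the KB1P and KB1PM median was 83.1. The glycolytic enzyme Gapdh, with 30.7% shared, was also higher in KP and L1363P than in KB2P (418, 614, 1959.7, 311 and 232 CPM against 15.8 to 156 CPM (median 62.3), L1363P 362 to 804 CPM, KB1P and KB1PM median 31.5). Nme2, a nucleoside diphosphate kinase with 55.4% shared, was near 0 in KP (0.0773 to 0.450 CPM) and L1363P (0.120 to 0.195 CPM) and at 3.36 to 17.1 CPM in KB2P. These values are uncertain, since counting could assign reads to a copy of the gene.

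The 3 gene classes left out also differed. Of 86 ribosomal protein genes tested 55 were higher and 9 lower in KP, of 895 pseudogenes 98 were higher and 329 lower, and of 73 skeletal muscle genes 49 were higher and none lower (28 and 0 without tumour 40). The muscle genes summed to 131, 115, 1550.2, 88.5 and 5376 CPM in KP and 91.9 to 252 CPM (median 146) in KB2P. Only 131.03A and 40 were above the KB2P range, with skeletal actin (Acta1) at 188 and 885 CPM there and at most 0.425 CPM in the other 3.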

How the data were processed

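Polyadenylated RNA was sequenced from strand-specific libraries on a HiSeq2500, per the labels' protocols. The authors deposited a table of read counts per gene and a table of log2 normalized values. Tools in the submitters' processing notes, listed there with no order or settings, are DESeq, featureCounts 2.0.0, STAR 2.7.3a and cutadapt 2.10, with the build mm10. The strand setting of the counting was not given in those notes.

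The deposited counts of all 73 libraries in 8 groups of genotype and histology were fitted with edgeR 4.0.16 in R 4.3.3: filterByExpr at a minimum count of 10, scaling by trimmed means of M values (TMM), the quasi-likelihood F test, and Benjamini-Hochberg adjustment at 0.05 over 18492 genes. Depth was 7325180 to 21818683 counts per library, and run (the first field of the library description) could not be a term because it coincides with genotype. CPM use the TMM-scaled library sizes. GC content, length, shared 31-base words and positions come from GENCODE M21 (GRCm38), for 99.3% of the genes tested. The scripts were tested on simulated data.

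Members and gene lists were chosen with earlier results of these data known. The text names Trp53, Brca1, Brca2 and Palb2, in each direction the 15 or fewer most changed genes that also passed without 90.01A and against each large KB2P run, and up to 6 called members per list. The genes that separate groups and the neighbours of Met, Nras and Yap1 were chosen after their values were seen. Some genes that these rules name are not reported here. Alternatives were other sample sets, scalings, filters, DESeq2 1.42.0, limma 3.58.1 on the deposited log2 values, a minimum fold of 1.5, GC and length offsets, and each KP tumour left out.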

Additional observations from a re-analysis of the deposited data

Results flagged for a closer look

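Among the 120 genes named in the text, the highest or lowest of the 5 KP tumours lay far from the other 4 in 18 (Dixon's criterion on log2 CPM). Chance alone would do so in about 1 in 20 groups of values taken without selection. Several of the 18, such as Capza2, Birc2 and Dcun1d5, were named after their values were seen, and neighbouring genes are not independent. The count of 18 therefore cannot be set against that rate. None of the 18 was weighed against an explanation.

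In tumour 131.03A the high values were those of Nras (2897 CPM), the mitotic kinase Aurka (84.7 CPM) and the resection factor Rbbp8 (144 CPM). In tumour 39 they were Met (14956 CPM) and its neighbour Capza2 (7029 CPM). In tumour 40 they were the X-linked neighbours Lamp2 (6178 CPM) and Cul4b (854 CPM).

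In tumour 90.01A Yap1 (9834 CPM), its neighbours Birc2 (1981 CPM), Birc3 (2069.7 CPM) and Dcun1d5 (4027 CPM), and the GTPase Cdc42 (705 CPM) stood above the other 4. In the same tumour the epithelial genes Epcam (1.65 CPM), Cdh1 (17.6 CPM) and Krt14 (3.15 CPM), the Notch ligand Dll1 (2.40 CPM), the Wnt feedback gene Nkd1 (0.675 CPM) and Sox10 (0.150 CPM) stood below them. So 11 of the 18 belong to 90.01A and 3 to 131.03A.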

How the results depend on the processing

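With all 73 libraries 6535 genes were called, 3182 higher and 3353 lower in KP. Leaving out each KP tumour in turn gave 4607 to 6336 genes, 2407 to 3082 higher and 2200 to 3254 lower, the fewest without 90.01A. Without 90.01A and 39, 3077 were called (1671 and 1406), and lower calls numbered 2118 without 131.03A and 40 and 2232 with the 28 libraries alone. A minimum fold of 1.5 gave 3183 (1687 and 1496). Other scalings, filters, tools, single KB2P runs and GC and length offsets kept all 3 counts within 1.5 times. The comparison of KB2P runs gave 1326 genes, and 98 when fitted on the 21 tumours of these runs.

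Of the 120 named genes, 103 were called. Over 22 settings 7 turned in sign, each where a tumour with a high value was left out. With single KP tumours left out, log2 fold changes ranged from -0.18 to 2.85 for Pgr (lowest without 40), -0.14 to 3.19 for Yap1, -0.36 to 3.07 for Birc2 and -0.38 to 3.83 for Dcun1d5 (lowest without 90.01A), and -0.42 to 1.92 for Tes (lowest without 39). Without 90.01A and 39 they were -0.059 for Yap1, -0.28 for Birc2, -0.42 for Dcun1d5, -0.16 for Birc3 and -0.26 for Tes, and without 131.03A and 40 -0.51 for Pgr and -2.47 for Acta1. None of the negative values passed the test. The pairs of tumours left out, the GC and length offsets and the removal of genes that share sequence were chosen after seeing the data. No paired analysis was possible because KP and KB2P tumours share no replicate numbers.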

Other observations

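Stalled replication forks are protected by BRCA2 and, when it is missing, are cut by nucleases such as MUS81 with its partner EME1. Of 21 genes of fork protection and replication stress measured, 8 were lower and 2 higher in KP (edgeR quasi-likelihood test), with 4 lower without 89.01A or without 40, 5 without 90.01A and 3 without 90.01A and 39. Over all genes 18.1% were lower and 17.2% higher. In the settings named, in that order, 17.6%, 13.3%, 11.9% and 7.62% of all genes were lower. Mus81, on chromosome 19, measured 15.1, 11.6, 15.7, 12.2 and 17.4 CPM in KP and 15.8 to 44.7 CPM (median 32.0) in KB2P (log2 fold change -1.10, SE 0.21, adjusted p = 3.2e-05), and L1363P adenocarcinomas had 16.4 to 19.5 CPM. The groups overlapped in 1 KP tumour, 40, and Mus81 passed without 90.01A and 39 (-0.92). Eme1 measured 5.20, 9.46, 21.0, 6.80 and 3.01 CPM against 9.21 to 38.5 CPM (median 17.3) (log2 fold change -1.01), highest of the KP tumours in 131.03A, and did not pass without 90.01A and 39 (adjusted p = 0.0651). Slfn9, a Schlafen family member, was the most increased of the list at 49.7, 141, 147, 96.3 and 53.2 CPM against 3.96 to 67.3 CPM (median 18.996), while L1363P tumours of the same run had 76.5 to 176 CPM. It shares 23.3% of its 31-base words with other genes, so its counts are uncertain.

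Both models lack p53, and of 23 p53 target genes 5 were higher and 3 lower in KP (median log2 fold change 0.19), or 5 and 0 with GC and length offsets, beside 17.2% higher and 18.1% lower over all genes. Cyclin G1 (Ccng1) measured 51.9, 147, 84.2, 106 and 133 CPM in KP and 30.6 to 78.05 CPM (median 48.3) in KB2P (log2 fold change 1.08, SE 0.17, adjusted p = 5.42e-07), above every KB2P tumour in all KP tumours but 89.01A. The ribonucleotide reductase subunit Rrm2b rose by 0.87 and the BH3-only cell death gene Bbc3 (PUMA) had a log2 fold change of -1.26, and neither passed with these offsets (adjusted p = 0.33 and 0.372). Of 23 cholesterol and fatty acid synthesis genes, 7 were lower and none higher, with 4 lower without 89.01A or without 90.01A. Over all genes, 17.6% were lower without 89.01A and 11.9% without 90.01A. The transcription factor gene of the cholesterol and fatty acid genes, Srebf2, measured 131, 116, 179, 179 and 145 CPM against 158 to 709 CPM (median 346) (log2 fold change -1.13, SE 0.25, adjusted p = 0.000286), with 3 KP tumours below every KB2P tumour.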
